A study of Homo sapiens with 3 samples.

Results

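The genes described here are MLPH, the gene carried by the transfected plasmids, and 9 genes for the Rab GTPases, myosin V motors and Rab27 effectors that work beside its product. They were taken by symbol from a read-count table of 15512 rows, in which 8 of the 10 genes were measured: MLPH, EXPH5, RAB27A, RAB27B, RAB38, MYO5A, MYO5B and MYO5C. SYTL2 and SYTL4 were not analysed here. The cells were 22Rv1, a human prostate cancer line. Plasmid carrying MLPH transcript V4 or MLPH transcript V1 (20 μg), or empty vector, was introduced for 48 h, with 1 library per group and 3 in all. The study asked how MLPH affects signalling pathways.

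The column taken as empty vector names no transfection. It was assigned by elimination, since the other columns are named for V4 and V1, so it is called the presumed empty-vector library. The transfected gene did not check the labels either: MLPH was not higher in the libraries labelled V4 and V1 than in the presumed empty-vector library. Total counts were 9609381 in the V4-labelled library, 9253399 in the V1-labelled library and 7165491 in the presumed empty-vector library. A count of 0 allows a level of up to 0.312, 0.324 and 0.419 CPM (counts scaled to the total of each library) in the same order, taking 3 counts as the limit. With a single library per group, no difference could be tested or checked against replicates. Intervals are 95% exact Poisson intervals for levels and 95% exact (Clopper-Pearson) intervals for ratios and shares. They cover counting error only, not the spread between cultures or library preparations.

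As background, Rab27 proteins are small GTPases that sit, in their GTP-bound form, on melanosomes and secretory granules. There they recruit effectors that hand the organelle to a motor or to the plasma membrane. Melanophilin, the MLPH product, binds Rab27a through its amino-terminal domain and myosin Va further along, and so ties the melanosome to actin-based transport in pigment cells. Loss of RAB27A, MYO5A or MLPH gives the pigment dilution of Griscelli syndrome in humans. RAB27B, MYO5B and MYO5C are the relatives used more by secretory and epithelial cells, and the prostate epithelium secretes.

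The sources used here do not say which annotated transcripts the V4 and V1 plasmids carry, and counts per gene symbol do not separate transcripts. GENCODE v29 lists 23 MLPH transcripts, of which 4 match a RefSeq entry. Their coding sequences are 1800 bases in MLPH-201, 1716 in MLPH-202, 1440 in MLPH-203 and 1371 in MLPH-204. MLPH-204 differs most from MLPH-201, lacking exons 7, 8 and 9, or 429 bases in all. Exons 7 and 8 are shown because, of these 4 transcripts, they are absent from MLPH-204 alone, so reads across them would separate it from the others. They lie on the forward strand of chromosome 2 in GRCh38, at chr2:237525601-237525805 (205 bases) and chr2:237527377-237527516 (140 bases), and contain coding sequence.
MLPH exon 7: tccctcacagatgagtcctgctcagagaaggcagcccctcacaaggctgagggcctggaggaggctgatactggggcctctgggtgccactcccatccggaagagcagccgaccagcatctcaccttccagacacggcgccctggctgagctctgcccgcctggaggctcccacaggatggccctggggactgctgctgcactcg
MLPH exon 8: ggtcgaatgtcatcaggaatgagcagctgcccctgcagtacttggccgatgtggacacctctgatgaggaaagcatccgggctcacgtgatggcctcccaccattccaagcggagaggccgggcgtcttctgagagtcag

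MLPH was abundant in every library. It had 7773 counts in the V4-labelled library, 7219 in the V1-labelled library and 7441 in the presumed empty-vector library. These were 809, 780 and 1038 CPM in the same order, or rank 162, 181 and 151 among all genes of each library. The highest level was thus in the presumed empty-vector library. After scaling by trimmed mean of M values (TMM), the V4-labelled library was 1.53-fold lower than the presumed empty-vector library (interval 1.48 to 1.58). The V1-labelled library was 1.63-fold lower (interval 1.58 to 1.68). Between the V4-labelled and the V1-labelled library the ratio was 1.06 (interval 1.03 to 1.10).

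MLPH lay below the median gene in both comparisons over empty vector and slightly above it in V4 over V1. Its log2 ratio (prior count 2) was -0.61 for V4 over empty vector, at percentile 30.9 of the 8965 genes kept at a mean of at least 1 CPM. It was -0.70 for V1 over empty vector, at percentile 24.6, and 0.09 for V4 over V1, at percentile 60.5. Scaling by total counts in place of TMM gave -0.36 and -0.41 over empty vector, below the 1.5-fold used to call a gene. Relative to total counts, TMM lowers a log2 ratio over empty vector by 0.25 (V4) or 0.29 (V1), and by less at low counts, where the prior count weighs more.

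**Figure D1:**
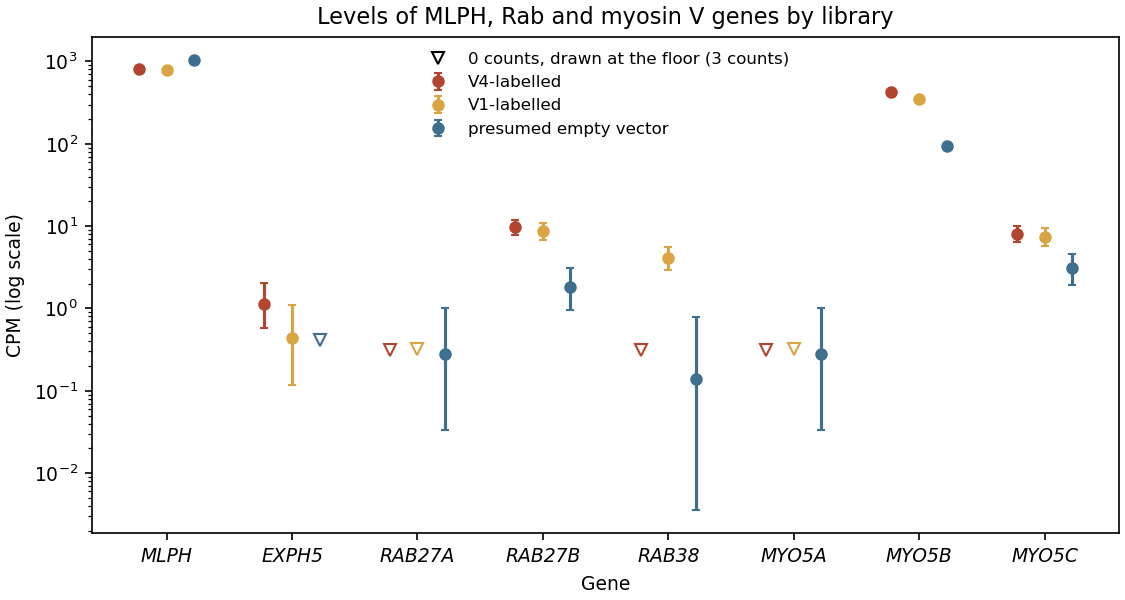
Level of each measured gene in CPM (log axis) in the V4-labelled, V1-labelled and presumed empty-vector libraries, 1 library each; bars are 95% exact Poisson intervals and open triangles mark 0 counts at the limit of 3 counts. MLPH (780 to 1038 CPM) and MYO5B (95.2 to 430 CPM) stand far above the other 6 genes, and RAB38 is above 1 CPM in the V1-labelled library alone.

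Of the Rab GTPases, RAB27B was measured in all 3 libraries, while RAB27A was at or near 0. RAB27B, the paralog used in secretory cells, had 94 counts (9.78 CPM) in the V4-labelled library, 80 (8.65 CPM) in the V1-labelled library and 13 (1.81 CPM) in the presumed empty-vector library. It was 4.52-fold higher in the V4-labelled library than in the presumed empty-vector library (interval 2.52 to 8.81) and 3.90-fold higher in the V1-labelled one (interval 2.15 to 7.63). The V4 over V1 ratio was 1.16 with an interval that includes 1 (0.852 to 1.58).

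RAB27A, the partner of melanophilin on melanosomes, had 0 counts in the V4-labelled and V1-labelled libraries and 2 in the presumed empty-vector library. All Rab27 counts, 94 and 80, were thus from RAB27B in the V4-labelled and V1-labelled libraries, which allows a RAB27A share of up to 3.19% and 3.75%. In the presumed empty-vector library RAB27B made up 86.7% (interval 59.5% to 98.3%) of 15 counts. No ratio is given for RAB27A, since every library was at or under the limit of 3 counts.

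RAB38, which helps deliver enzymes to maturing melanosomes, had 0 counts in the V4-labelled library, 38 (4.11 CPM) in the V1-labelled library and 1 in the presumed empty-vector library. It passed the filter on low counts only through the V1-labelled library. The V4-labelled library was at least 12.8-fold lower than the V1-labelled one with 3 counts as the limit, and the interval reaches to 9.93-fold lower. The V1 over empty vector ratio was 24.1, with a wide counting interval (4.06 to 975) because the denominator was 1 count. V4 over empty vector has no ratio, both being at or under the limit. RAB32, the closest paralog of RAB38, had 1122, 1226 and 1014 counts in the V4-labelled, V1-labelled and presumed empty-vector libraries and was called in no comparison.

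Among the myosin V motors, MYO5B, which moves recycling endosomes in epithelial cells, carried nearly all counts. It had 4128 counts (430 CPM) in the V4-labelled library, 3207 (347 CPM) in the V1-labelled library and 682 (95.2 CPM) in the presumed empty-vector library. The V4-labelled library was 3.78-fold higher than the presumed empty-vector library (interval 3.49 to 4.11). The V1-labelled library was 2.98-fold higher (interval 2.74 to 3.24). V4 over V1 was 1.27 (interval 1.21 to 1.33), an interval that excludes 1 but a ratio under 1.5-fold.

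MYO5C, a motor of secretory granules in glandular epithelia, had 78 counts (8.12 CPM) in the V4-labelled library, 69 (7.46 CPM) in the V1-labelled library and 22 (3.07 CPM) in the presumed empty-vector library. Ratios over empty vector were 2.22 (interval 1.37 to 3.74) for V4 and 1.99 (interval 1.21 to 3.37) for V1. The V4 over V1 ratio was 1.12 (interval 0.797 to 1.57). MYO5A, the melanosome motor, had 0 counts in the V4-labelled and V1-labelled libraries and 2 in the presumed empty-vector library.

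The make-up of the myosin V counts was close to constant while their total was not. MYO5B made up 98.1% (interval 97.7% to 98.5%) of 4206 counts in the V4-labelled library, 97.9% (97.3% to 98.4%) of 3276 in the V1-labelled library and 96.6% (94.98% to 97.8%) of 706 in the presumed empty-vector library. MYO5A took 0 counts in the V4-labelled and V1-labelled libraries, which allows a share of up to 0.0713% and 0.0916%. It took 0.283% in the presumed empty-vector library. Per kilobase of longest transcript, MLPH stood 4.68 times above MYO5B in the V4-labelled library, 5.60 times in the V1-labelled library and 27.1 times in the presumed empty-vector library. This ratio within a library depends on no scaling between libraries. It does keep differences between libraries that go with transcript length, described below. The longest transcript is 9505 bases for MYO5B and 3823 for MLPH.

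EXPH5, which encodes the Rab27 effector Slac2-b, was near the limit of detection. It had 11 counts in the V4-labelled library, 4 in the V1-labelled library and 0 in the presumed empty-vector library. The V4-labelled library was at least 2.29-fold higher than the presumed empty-vector library with 3 counts as the limit. The V4 over V1 ratio was 2.72 with an interval that includes 1 (0.805 to 11.7). EXPH5, RAB27A and MYO5A did not pass the filter and entered no count of called genes.

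A gene was called where its ratio (prior count 2) was at least 1.5-fold and its counting interval excluded 1. RAB38 entered the kept genes only through the V1-labelled library, where it is high, so its calls (higher in V1 over empty vector, lower in V4 over V1) follow in part from that filter and are left out of the counts here. Of the other 4 kept genes, 3 were called higher in V4 over empty vector (RAB27B, MYO5B, MYO5C) and MLPH was called lower. All kept genes gave 32.7% higher and 29.3% lower. In V1 over empty vector the same 3 were called higher and MLPH lower, against 32.8% higher and 26.2% lower among all kept genes. In V4 over V1, 0 of the 4 were called either way, against 5.42% higher and 6.98% lower. Both comparisons over empty vector share that library, and calls in either direction were common there.

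The median log2 ratio of these 4 genes was 1.51 for V4 over empty vector, 1.26 for V1 over empty vector and 0.18 for V4 over V1. The medians of all kept genes were 0.07, 0.12 and -0.01 in the same order.

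**Figure D2:**
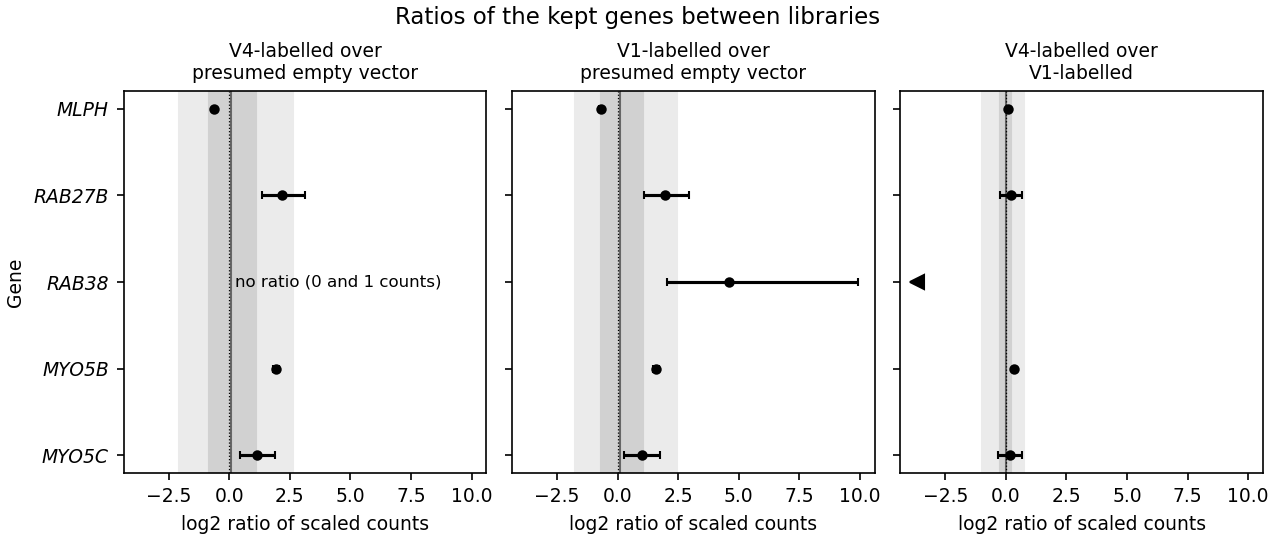
Log2 ratio of TMM-scaled counts (x axis) for the 5 kept genes in each comparison, with 95% exact counting intervals; the dark band holds the 25th to 75th percentile of all 8965 kept genes, the light band their 5th to 95th percentile and the grey line their median. The arrowhead is the limit of at least 12.8-fold lower for RAB38, and the bands are far narrower for V4 over V1 than for the comparisons over empty vector.

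Transcript length moved with the ratios over empty vector. Among kept genes with a known length, the median log2 ratio of V4 over empty vector was -0.96 in the shortest of 8 bins of nearly equal size (50 to 1589 bases) and 0.90 in the longest (6646 to 43816 bases). For V1 over empty vector these medians were -0.78 and 0.74, and for V4 over V1 -0.15 and 0.20. RAB27B, MYO5B and MYO5C have longest transcripts of 7281, 9505 and 6971 bases, all in the longest bin. In that bin 53.4% of genes were called higher in V4 over empty vector and 49.6% in V1 over empty vector.

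Set against genes of its own bin, RAB27B lay at percentile 78.9 for V4 over empty vector and 79.4 for V1 over empty vector. MYO5B lay at percentile 75.8 and 73.0, and MYO5C, at 54.8 and 55.6, close to the middle. With the length trend taken out, the log2 ratios over empty vector were 1.23 (V4) and 1.15 (V1) for RAB27B, and 0.94 and 0.77 for MYO5B. Those of MYO5C came to 0.29 and 0.26 and were no longer called. MLPH, with a longest transcript of 3823 bases, came to -1.03 and -1.14. RAB38, at 1465 bases, came to 3.81 for V1 over empty vector. It is not ranked in its bin, because it was kept only through the V1-labelled library.

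**Figure D3:**
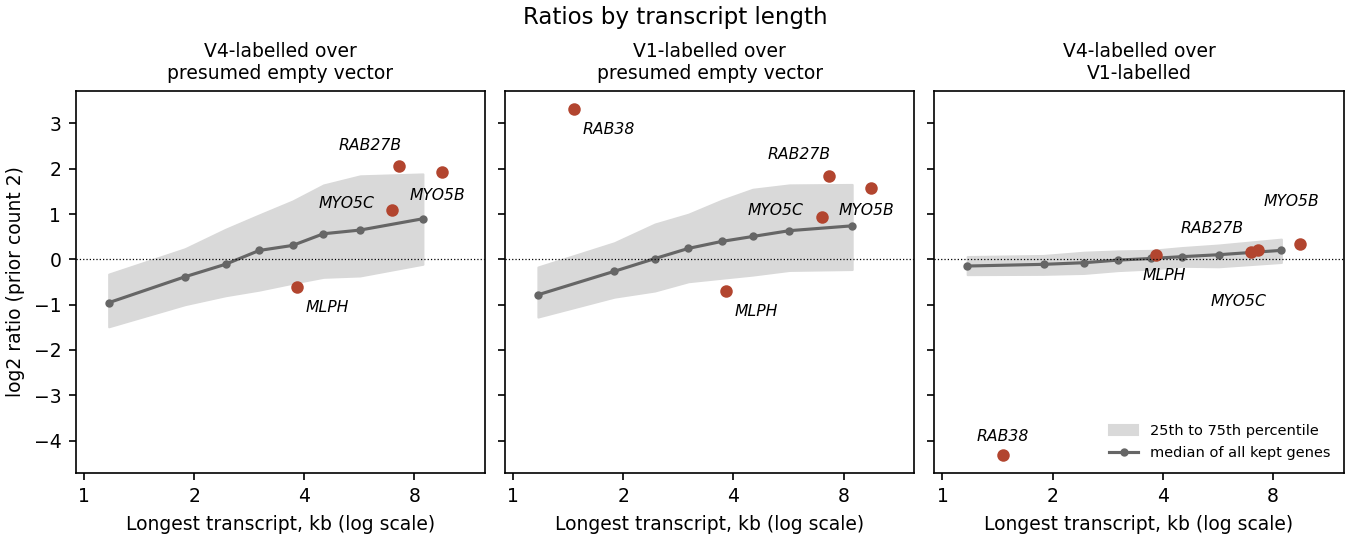
Log2 ratio (prior count 2) against the length of the longest transcript (log axis) for each comparison; the line joins the medians of 8 bins of kept genes, the band spans the quartiles, and red points are the kept genes named (RAB38 is left out of V4 over empty vector, where both counts are under the limit). The line climbs by more than 1 log2 unit in both comparisons over empty vector, and RAB27B, MYO5B and MYO5C sit at its long end.

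The promoters of the 3 genes called higher over empty vector in both comparisons are shown to allow a comparison of their sequence. They are RefSeq windows of 300 bases on GRCh38.p14, 5′ to 3′ on the gene's strand. Capitals mark GGGCGG or its reverse complement CCGCCC, the GC box. The windows are chr18:50195098-50195397 (reverse strand) for MYO5B, chr15:52295755-52296054 (reverse strand) for MYO5C and chr18:54717607-54717906 (forward strand, the first of 2 listed) for RAB27B.
MYO5B promoter: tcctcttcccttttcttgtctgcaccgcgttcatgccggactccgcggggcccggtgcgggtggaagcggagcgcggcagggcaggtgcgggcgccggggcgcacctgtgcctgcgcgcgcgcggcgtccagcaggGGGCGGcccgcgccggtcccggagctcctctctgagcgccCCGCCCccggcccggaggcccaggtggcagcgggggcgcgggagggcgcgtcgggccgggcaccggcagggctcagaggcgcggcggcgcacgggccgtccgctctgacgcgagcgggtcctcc
MYO5C promoter: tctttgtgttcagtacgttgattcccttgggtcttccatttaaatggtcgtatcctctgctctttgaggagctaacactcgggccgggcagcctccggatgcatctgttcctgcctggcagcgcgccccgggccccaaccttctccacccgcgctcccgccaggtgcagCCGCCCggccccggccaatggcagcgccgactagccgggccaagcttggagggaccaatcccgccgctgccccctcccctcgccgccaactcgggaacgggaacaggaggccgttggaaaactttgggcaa
RAB27B promoter: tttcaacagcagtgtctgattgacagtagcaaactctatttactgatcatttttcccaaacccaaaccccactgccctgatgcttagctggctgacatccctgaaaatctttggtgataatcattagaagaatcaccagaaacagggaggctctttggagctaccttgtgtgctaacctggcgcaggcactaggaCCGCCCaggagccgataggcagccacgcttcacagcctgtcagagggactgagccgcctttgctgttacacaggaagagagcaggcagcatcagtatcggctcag

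The windows differed widely in base composition. GC content was 80.0% for MYO5B, 64.7% for MYO5C and 51.0% for RAB27B, against a median of 58.7% over 35116 RefSeq promoters. The second window listed for RAB27B, not shown, had 59.0%. The GC box was found 2 times in the MYO5B window and 1 time in each of the others. On either strand, 45.0% of all promoters held it. The motifs CACGTG (an E-box, in 7.26% of all promoters) and TATAAA (11.5%) were found in none of the 3. Promoter entries were matched for 8 of the 10 genes.

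The 5 kept genes have fewer annotated transcripts than the measured genes that did not pass the filter. RAB38, 1 of the 5, passed it only through the V1-labelled library. RefSeq lists 1 curated transcript each for MYO5B, MYO5C and RAB38, 2 for RAB27B and 4 for MLPH, against 6 for MYO5A, 15 for RAB27A and 18 for EXPH5. Across protein-coding genes, 36.3% of those with 4 or more curated transcripts passed the filter on low counts, against 45.3% of those with 1. The share was 39.0% with 2 and 35.6% with 3. The median level of those that passed was 9.91 CPM with 4 or more and 26.9 CPM with 1. The sources used here do not say how reads shared by transcripts were counted, and its part in the low counts of RAB27A, MYO5A and EXPH5 was not tested. The longest identical run between transcripts of any 2 of the 10 genes was 40 bases over 45 pairs, shorter than the 150-base reads.

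The genes whose 3 log2 levels ran most like those of MLPH, centred on the gene's mean, were NCL, C15orf39, PITRM1, INTS7 and TRUB2, at distances of 0.013 to 0.024 log2 units. For RAB38 they were FOXE1, EREG, GATM, TNFRSF1B and ICAM1, at distances of 0.38 to 0.62. FOXE1 had 0, 40 and 2 counts in the V4-labelled, V1-labelled and presumed empty-vector libraries. EREG, which encodes the growth factor epiregulin, had 5, 193 and 7. ICAM1, an adhesion receptor for leukocytes, had 27, 509 and 51. Over 3 libraries such likeness is only a description.

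**Figure D4:**
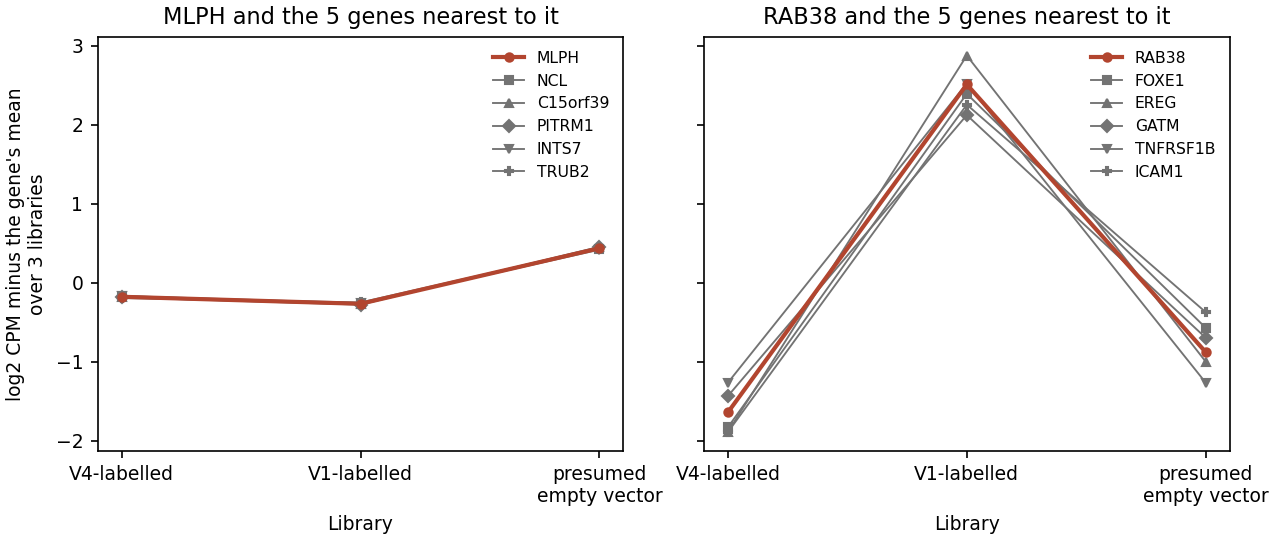
Log2 CPM (prior count 2) minus the gene's mean over 3 libraries, for MLPH and for RAB38 (red) and the 5 genes nearest to each (grey), with libraries along the x axis. The MLPH lines overlie one another and are highest in the presumed empty-vector library, while the RAB38 lines are highest in the V1-labelled library.

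The machinery that switches Rab27 on and off and attaches its lipid anchor was followed in a list of 13 genes, 8 of them kept. Over empty vector, 5 were called higher and 1 lower for V4 (median log2 ratio 1.40), and 4 higher and 1 lower for V1 (0.78). All kept genes gave 32.7% higher and 29.3% lower for V4, and 32.8% higher and 26.2% lower for V1, with medians of 0.07 and 0.12. For V4 over V1, 1 was called higher and 0 lower (-0.01), against 5.42% and 6.98%. CHML, an escort protein for Rab prenylation, had 246 counts in the V4-labelled library, 193 in the V1-labelled library and 38 in the presumed empty-vector library. It was 4.05-fold (V4) and 3.22-fold (V1) higher over empty vector. CORO1C, an actin-binding coronin, had 38, 48 and 4 counts in the same order. At 0.558 CPM in the presumed empty-vector library, it passed the filter through the other libraries, so its calls follow in part from that filter. RAB3IP, an exchange factor, had 101, 122 and 22, and GDI2, which keeps Rab proteins soluble, had 782, 610 and 179. Longest transcripts were 7594 bases for CHML, 9646 for RAB3IP, 3921 for CORO1C and 2499 for GDI2. The length trend was not taken out of the calls and medians of this list or the lists below. Its part in them was not tested.

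Of 12 other Rab27 and Rab3 effectors and Rab3 relatives, 5 were kept. Over empty vector 3 were called higher and 0 lower for V4 (median 1.54), and 1 higher and 0 lower for V1 (0.98). Of all kept genes, 32.7% were higher and 29.3% lower for V4, and 32.8% and 26.2% for V1. For V4 over V1, 1 was higher and 0 lower (0.18), against 5.42% and 6.98% of all kept genes. RAB3D, a GTPase of secretory granules, had 153, 157 and 26 counts in the V4-labelled, V1-labelled and presumed empty-vector libraries. It was 3.68-fold (V4) and 3.82-fold (V1) higher over empty vector. SYTL1, a Rab27 effector, had 14, 12 and 2 counts, too few for a narrow interval (V4 over empty vector 4.38, interval 1.01 to 39.7). SYTL1 and RAB3B had 0.279 and 0.837 CPM in the presumed empty-vector library. They passed the filter through the other libraries, so their calls over empty vector follow in part from it. MYRIP, an effector that joins Rab27a to myosin VIIa, had the highest mean level of the list with 202, 154 and 88 counts and was not called.

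Of 16 genes for myosin V light chains, cargo Rabs and actin nucleators, 9 were kept. Over empty vector 5 were called higher and 1 lower for V4 (median 0.83), and 6 higher and 1 lower for V1 (0.88), beside shares of 32.7% and 29.3% (V4) and 32.8% and 26.2% (V1) among all kept genes. For V4 over V1, 0 were called either way (0.02), against 5.42% higher and 6.98% lower among all kept genes. RAB8A, a GTPase of exocytic traffic that binds myosin V, had 1188, 1161 and 248 counts in the V4-labelled, V1-labelled and presumed empty-vector libraries. It was 2.995-fold (V4) and 2.964-fold (V1) higher over empty vector. RAB10, the most abundant, had 6758, 6236 and 2139 counts and ratios of 1.98 and 1.85. The gene called lower was RAB11A, a cargo Rab, with 1697, 1552 and 1708 counts. It was 1.61-fold (V4) and 1.74-fold (V1) lower over empty vector. MAPRE1, the microtubule end-binding protein EB1, had 1572, 1561 and 370 counts. DYNLL2, a myosin V light chain, had 878, 859 and 261, and SPIRE2, an actin nucleator, 19, 26 and 6. At 0.837 CPM in the presumed empty-vector library, SPIRE2 passed the filter through the other libraries. Its call in V1 over empty vector follows in part from that filter.

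Of 22 genes for biogenesis of lysosome-related organelles, the class that includes melanosomes, 15 were kept. Over empty vector 5 were called higher and 3 lower for V4 (median -0.04), and 4 higher and 2 lower for V1 (0.14). Of all kept genes, 32.7% were higher and 29.3% lower for V4, and 32.8% and 26.2% for V1. For V4 over V1, 0 were called either way (-0.17), against 5.42% higher and 6.98% lower among all kept genes. HPS4, a subunit of the exchange factor for RAB32 and RAB38, had 255, 207 and 35 counts in the V4-labelled, V1-labelled and presumed empty-vector libraries. It was 4.56-fold (V4) and 3.74-fold (V1) higher over empty vector. AP3D1, the delta subunit of the AP-3 adaptor, had 24, 27 and 43 counts and was 2.87-fold (V4) and 2.52-fold (V1) lower. VPS33A, a membrane-tethering subunit, was the most abundant with 2930, 2779 and 1088 counts. SNAPIN had 100, 83 and 25 counts, and BLOC1S3 had 158, 218 and 64.

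Of 9 pigment cell markers, 1 passed the filter (GPR143, with 57, 58 and 52 counts in the V4-labelled, V1-labelled and presumed empty-vector libraries). MITF, the master regulator of that lineage, had 0, 1 and 0. Of 10 luminal prostate markers 7 were kept, with summed levels of 1415, 1430 and 1197 CPM. FOXA1, a transcription factor of luminal cells, had 6205, 5861 and 1214 counts, and KRT8, a luminal keratin, 1636, 2085 and 4425.

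Genes listed for prostate lines without androgen receptor (14 listed, 9 kept) summed to 38.1 CPM in the V4-labelled library. They summed to 559 CPM in the V1-labelled library and 339 CPM in the presumed empty-vector library. In V4 over V1, 8 of the 9 were called lower, and 6.98% of all kept genes were. The marker lists were chosen with earlier results of these data known, so this difference is a description and not a test. LCN2, TGFBI, FOSL1 and CAV1 had 0.624, 0.833, 0.728 and 0.520 CPM in the V4-labelled library. They passed the filter through the other libraries, so their calls follow in part from it, which limits a comparison with the share of all kept genes. CD44, the kept gene not called in V4 over V1, had 28, 22 and 2 counts in the V4-labelled, V1-labelled and presumed empty-vector libraries. LCN2 had 6, 1359 and 750 counts in the same order, UCHL1 34, 1933 and 816, IL8 10, 435 and 75, and TGFBI 8, 284 and 107. Fibroblast markers (8 listed, 3 kept) summed to 4.995, 168 and 153 CPM, with COL1A2 at 4, 976 and 687 counts and COL3A1 at 0, 526 and 364. LUM, the third kept marker, had 44, 33 and 33 counts and was called in no comparison. RAB38 was thus at 0 in the library where these lists were low, and at 1 count in the presumed empty-vector library, where they were high. Other cells in the V1-labelled culture and altered RNA levels within 22Rv1 cells cannot be told apart in bulk RNA, and their part in the RAB38 result was not tested.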

How the data were processed

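Poly(A) RNA of 22Rv1 cells was read on a HiSeq2500 (single-end, 150 bp), per the labels' protocols. The deposited table holds read counts per gene symbol, made by the authors. The submitters' processing notes name hg19. The aligner, counting program, annotation and strand setting were not given in the sources used here. A technical replicate is mentioned in the design text, but the table has 1 column per group.

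Counts of 21 repeated symbols were summed, and 22 rows bearing a calendar date were kept without a name. Genes with a mean of at least 1 CPM over 3 libraries were kept (8965 of 15488). Library sizes were scaled by TMM (edgeR 4.0.16, R 4.3.3), with factors of 1.05 (V4), 1.08 (V1) and 0.882 (presumed empty vector). Kept genes had a median of 149, 149 and 71 counts in the same order. Protein-coding genes of mitochondrial DNA, summed with any rows named RNR1 or RNR2, took 21.3%, 19.0% and 15.2% of counts. Log2 ratios used a prior count of 2, and printed ratios none. Calls needed 1.5-fold and a 95% exact conditional binomial interval (scipy 1.17.1) excluding 1. With 1 library per group, intervals and limits cover counting error alone. Copies of 1 molecule cannot be recognised without molecular identifiers, so the intervals may be too narrow even for that error.

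Transcript lengths came from GENCODE v29, and transcript numbers and promoters from RefSeq. Both are on GRCh38, so only sequences from those tables carry coordinates. Lengths were found for 91.0% of kept genes. Length and GC trends are lowess curves from statsmodels 0.14.6 with a fraction of 0.3. Alternatives were DESeq2 1.42.0, total-count and upper-quartile scaling, prior counts of 0.5 and 8, other filters and thresholds, and no condition on the interval. Removing a length or GC trend, and TMM over the V4 and V1 columns alone, were added after seeing the data, as was leaving RAB38 out of the counts of called genes.

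The members and gene lists were chosen with earlier results of these data known. From each list, up to 4 called genes with the largest log2 ratio and the most abundant gene are named, besides the 5 genes nearest to MLPH and to RAB38. Some genes that this rule takes are left out of the text. RAB32, RAB11A, FOSL1, CAV1, MITF and the genes named in the closing section outside this rule were chosen after their values were seen.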

Additional observations from a re-analysis of the deposited data

How the results depend on the processing

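Of 110 ratios of the 5 kept genes under alternatives, 87 moved by less than their counting interval, 23 moved by more and 0 of the called ratios changed sign. The tally includes RAB38, whose intervals are wide at counts of 0 and 1 and so left its ratios much room to move. It is no measure of how stable RAB38 is. With a mean of at least 10 CPM, MLPH and MYO5B are the genes left, so the number called was 2 for V4 over empty vector, 2 for V1 over empty vector and 0 for V4 over V1. Counting RAB38 as well, 4, 5 and 1 genes were called in these comparisons, and a 2-fold threshold left 3 for V1 over empty vector. Per kilobase, the MYO5B share of myosin V was 97.5% in the V4-labelled library and 97.2% in the V1-labelled library. MLPH was not called under total counts (-0.36 for V4 and -0.41 for V1 over empty vector) or, for V4 over empty vector, with the GC trend removed (-0.55). MYO5C was not called with the length trend removed (0.29 and 0.26) or, for V1 over empty vector, with the GC trend removed (0.64). The cause of these changes was not tested.

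Over empty vector, RAB27B and MYO5B stayed called under every alternative run with the filter at 1 CPM. The same holds for RAB38 in V1 over empty vector, but no conclusion is drawn from it. RAB38 passed that filter only through the V1-labelled library, where it is high, and had 1 count in the presumed empty-vector library. The log2 ratio over empty vector ranged from 1.23 to 2.29 (V4) and 1.15 to 2.11 (V1) for RAB27B, and from 0.94 to 2.17 and 0.77 to 1.86 for MYO5B. Depth limits RAB27A, MYO5A, EXPH5 and RAB38, whose counts are at or near 0 in at least 1 library. No library could be left out with 1 per group, and no paired analysis was possible because each group has 1 library.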

Other observations

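MADD, an exchange factor that loads Rab27 and Rab3 proteins with GTP, was the gene of the Rab27 switch list called higher in V4 over V1. It had 107 counts in the V4-labelled library, 55 in the V1-labelled library and 25 in the presumed empty-vector library, with a V4 over V1 ratio of 1.92 (interval 1.38 to 2.71). RAB3B, a GTPase of regulated secretion, was the effector-list gene called in the same comparison, with 38, 21 and 6 counts and a ratio of 1.79 (interval 1.02 to 3.21). RABGGTB, the catalytic subunit of the Rab prenylation enzyme, had 449, 507 and 653 counts and was called lower over empty vector for both V4 and V1.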
